A study of Mus musculus with 5 samples.

Results

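The genes described here encode enzymes by which the liver makes glucose and stores it as glycogen: Pck1, G6pc, Fbp1 and Pcx of gluconeogenesis, and Gys2, Pygl, Gbe1, Ugp2 and Ppp1r3c of glycogen metabolism. They are 9 of the 31053 genes in the count matrices, picked by symbol, and each symbol matched 1 gene. Their levels were read in hepatocytes of 5 mouse liver libraries. A barcode counted as a hepatocyte when it held at least 5000 unique molecular identifiers (UMIs, the tags that mark single captured RNA molecules), between 10% and 30% of them from mitochondrial genes and at least 1% from Alb, Apoa1 and Ttr together. This rule kept 5691 hepatocytes in all: 2106 from mice of postnatal day 14 (P14), 925 from the adult control, and after partial hepatectomy 1170 at 24 h, 719 by 48 h and 771 by 96 h.

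Gluconeogenesis builds glucose from lactate, amino acids and glycerol. Pyruvate carboxylase (Pcx), phosphoenolpyruvate carboxykinase (Pck1), fructose bisphosphatase (Fbp1) and glucose-6-phosphatase (G6pc) carry out the steps that bypass the irreversible reactions of glycolysis, and in the liver these enzymes are known to be most active around the portal vein. Glycogen is made from UDP-glucose, supplied by Ugp2, by the liver glycogen synthase Gys2 and the branching enzyme Gbe1. It is broken down by the liver phosphorylase Pygl, while Ppp1r3c, also called PTG, tethers protein phosphatase 1 to glycogen and favours synthesis. Insulin, glucagon and glucocorticoids set the transcription of several of these genes in liver.

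All mice were of the C57BL/6J strain, and liver cells were released by perfusion, depleted of dead cells and sequenced with the 10x v3 chemistry. The groups were untreated mice at P14, an adult control, and adults operated at 8 weeks of age, from which most of the liver had been removed 24, 48 or 96 h earlier. There was 1 library per group, so no difference has a replicate check and no test between groups was possible. The labels give neither sex nor number of animals nor feeding state, and they disagree on the control, which the protocol counts among the operated samples whereas its title and source name an adult control and it carries no treatment tag, and the latter reading was used. The code in its description also ends differently from that of the other 4 libraries, and whatever the ending stands for cannot be told apart from being the control.

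The hepatocytes held a median of 38922.5 UMIs at P14 and 18527 in the control, and of 19562, 35432 and 22075 at 24, 48 and 96 h, and their median mitochondrial share lay between 20.6% and 26.0%. Of barcodes with the depth and marker share, the mitochondrial limits kept 2106 of 2676 at P14 and 925 of 1576 in the control. After surgery they kept 1170 of 1960, 719 of 1258 and 771 of 3156. At 96 h, 1701 were over 30% and 684 under 10%, so the values there describe a minority of such barcodes. The results per cell, along the lobule and by division were not rerun at other mitochondrial limits. Of 9 further hepatocyte markers outside the rule, such as Apob, Fgb and Cps1, all 9 were found in each library, with summed levels from 28728 to 50009 CPM (UMIs of a gene scaled to those of all non-mitochondrial genes). Summed markers of lymphocytes were at 10.05 to 38.2 CPM, endothelial cells at 9.45 to 19.1, mesenchymal cells at 3.74 to 46.1, and cholangiocytes at 6.44 to 33.8. Myeloid markers ranged from 17.2 CPM in the control to 180 at 48 h, and erythroid markers from 123 at P14 to 761 at 48 h. Libraries shared 3 hepatocyte barcodes over all pairs. The part of these markers in the results was not tested beyond leaving out cells with at least 3 such markers (lymphocyte, myeloid, endothelial or mesenchymal). That kept 835 of 925 control cells but 269 of 719 at 48 h, and changed no count of members called between libraries and was not run for the other counts.

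Upstream sequences of Pck1 and G6pc are shown because the first was among the genes with lower levels at all 3 times after surgery and the second was the member that stood farthest above the control at P14. Both are the 250 bases before the RefSeq transcript start in assembly GRCm38.p6 (mm10), on the plus strand, chr2:173152823-173153072 for Pck1 and chr11:101367466-101367715 for G6pc. Capitals mark matches to the motifs searched, which were TGACGTCA (the cAMP response element), TTACGTNA (a variant of it), TGTTTTG and TATTTTG (cores bound by FOXO factors), CACGTG (the E-box of the carbohydrate response) and TATAAA (the TATA box), on both strands.
Pck1: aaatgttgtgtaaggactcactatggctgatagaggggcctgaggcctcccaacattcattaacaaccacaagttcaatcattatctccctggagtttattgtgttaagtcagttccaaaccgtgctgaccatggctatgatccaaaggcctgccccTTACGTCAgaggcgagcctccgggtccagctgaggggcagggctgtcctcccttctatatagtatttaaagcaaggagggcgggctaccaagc
G6pc: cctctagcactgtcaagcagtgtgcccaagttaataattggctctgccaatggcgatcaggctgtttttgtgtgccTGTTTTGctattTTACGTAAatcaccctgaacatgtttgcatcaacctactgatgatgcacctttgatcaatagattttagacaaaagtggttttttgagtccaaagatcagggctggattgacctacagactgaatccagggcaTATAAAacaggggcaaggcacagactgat
Pck1 held TTACGTCA, with its first base at −93 from the transcript start, and G6pc held TTACGTAA at −162, TGTTTTG at −174 and TATAAA at −29. Of 32536 windows of this length in the table, 0.793% held TTACGTNA, 5.60% TGTTTTG and 12.3% TATAAA. The table had 10 windows for 8 of the 9 genes and none for Gys2, which was therefore not searched. Among the others, CACGTG was found in Pcx at −248 and in Ppp1r3c at −104, a motif in 6.04% of windows. TGACGTCA (1.56% of windows) and TATTTTG (3.96%) matched in none of the 10. A match describes letters and not a bound site. In GENCODE M21 on mm10, Pck1 spans chromosome 2, 173153048 to 173159273, and G6pc chromosome 11, 101367561 to 101377903, so that annotation places the 5′ end of both genes within these windows.

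The gluconeogenic genes differed in their course. Pck1 was more than 1.5-fold below the control at 48 and 96 h and Pcx at 96 h, and G6pc was more than 1.5-fold above it at 48 h. At the other times after surgery these genes lay within 1.5-fold of the control, as Fbp1 did at all 3. At P14, G6pc and Fbp1 were well above the adult control. Levels are given as CPM, the UMIs of a gene scaled to the UMIs of all non-mitochondrial genes, summed over the hepatocytes of a library. Intervals are 95% Poisson intervals for levels and exact conditional binomial intervals for ratios, and all of them cover counting error only.

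Pck1, which turns oxaloacetate into phosphoenolpyruvate, was at 2743 (2715 to 2772) CPM in the control. After surgery it was at 2131 (2110.5 to 2151) by 24 h, 1523 (1506 to 1539.8) by 48 h and 1476 (1456 to 1497) by 96 h, and P14 cells had 2663 (2651 to 2676). No interval overlapped another. The control and P14 were close, and their log2 ratio of −0.04 ranged from −0.07 to 0.51 over the alternatives, so which of them was highest is not settled. The step from 48 to 96 h was small, and its log2 ratio of −0.05 turned to 0.12 with 10% to 50% mitochondrial UMIs and to 0.11 in non-cycling cells, so the order of these times is not settled. Against the control, the log2 ratio was −0.36 at 24 h, −0.85 (95% interval −0.87 to −0.83) at 48 h and −0.89 (95% interval −0.92 to −0.87) at 96 h, the last a level 1.86-fold lower. With a marker share of 5% in place of 1%, which left 47 control and 545 cells at 96 h, the 96 h ratio was −0.28, within 1.5-fold of the control.

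Pcx, the mitochondrial enzyme that carboxylates pyruvate, was at 308 CPM at P14, 274 in the control, and 234, 207 and 170.2 at 24, 48 and 96 h. These 5 levels did not overlap in their intervals, and 96 h was lowest. The log2 ratios to the control were −0.22, −0.40 and −0.68 (95% interval −0.76 to −0.61) after surgery and 0.17 at P14. The 96 h ratio was −0.52 with a marker share of 5%, also within 1.5-fold.

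G6pc, which releases free glucose from glucose-6-phosphate, was at 743 (737 to 749.9) CPM at P14 and at 104 (99.0 to 110.0) in the control, 7.12-fold higher at P14 with a log2 ratio of 2.83 (95% interval 2.75 to 2.91). After surgery the level was 125 (120.3 to 130.2) by 24 h, 177 (171 to 183) by 48 h and 131 (125 to 137) by 96 h. The intervals of 24 h and 96 h overlapped, and all 3 times lay above the control, by 0.26, 0.76 (95% interval 0.67 to 0.85) and 0.33 on the log2 scale. With only cells of 10% to 20% mitochondrial UMIs the 24 h ratio was −0.08, and without the lower mitochondrial limit the 96 h ratio was −0.14, so its direction at these times is not settled. The 48 h ratio stayed positive but was within 1.5-fold, at 0.57 with 10% to 20% mitochondrial UMIs and at 0.56 in non-cycling cells.

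Fbp1, which removes a phosphate from fructose-1,6-bisphosphate, was at 1752 (1741 to 1762) CPM at P14. The adult levels lay much closer together, at 688 at 24 h, 729 in the control, 759 at 48 h and 866 at 96 h. Its log2 ratio to the control was 1.26 (95% interval 1.23 to 1.29) at P14, a 2.40-fold difference, and −0.08, 0.06 and 0.25 after surgery. The 48 h ratio ranged from −0.03 to 0.16 over the alternatives, so its direction is not settled.

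**Figure D1:**
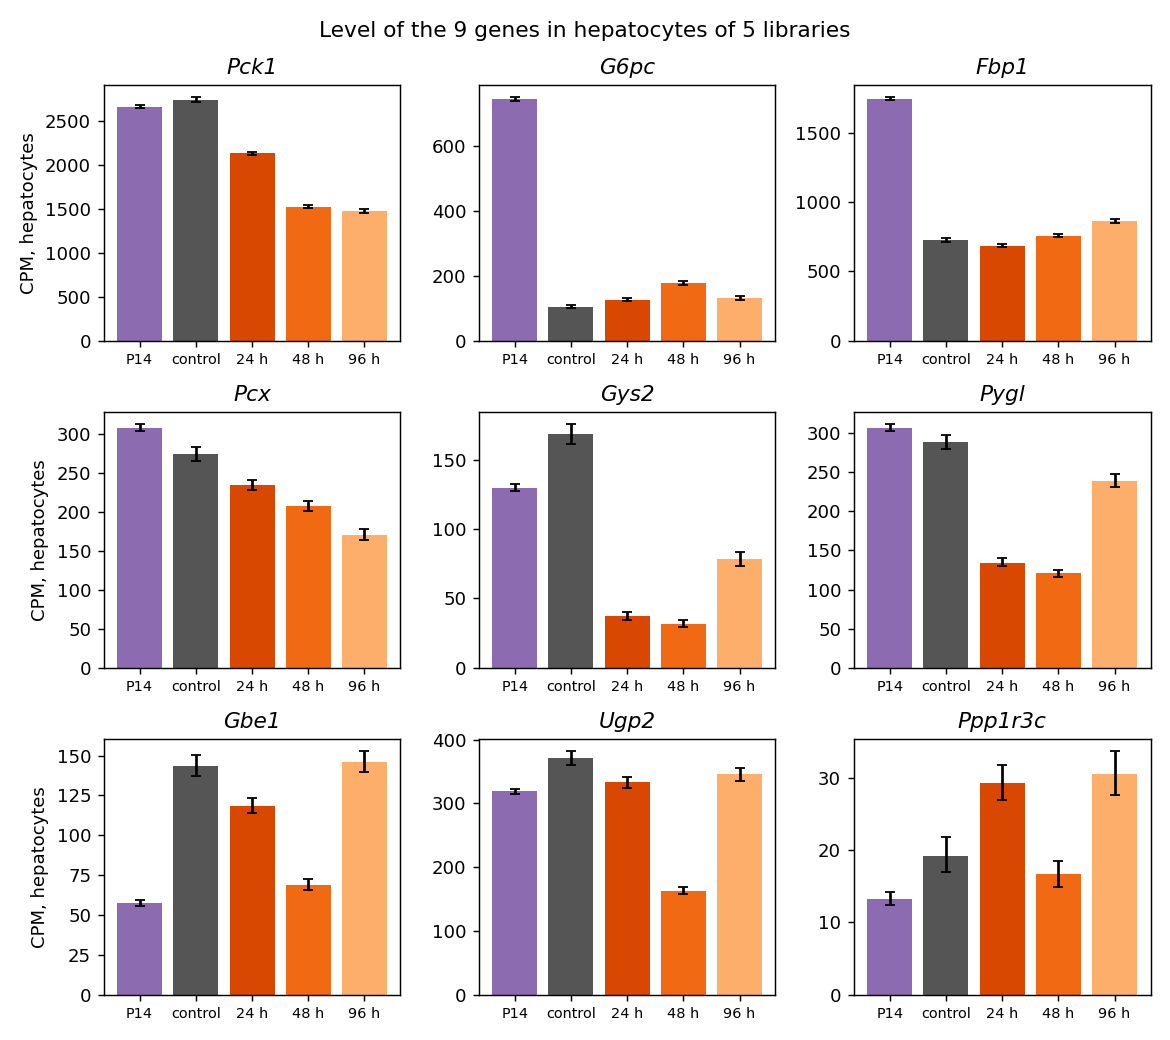
Level of each of the 9 genes (CPM of non-mitochondrial UMIs, linear axis from 0, a separate scale for each gene) in the hepatocytes of the 5 libraries. Bars are 1 library each with the 95% Poisson interval. Pcx steps down from the control to 96 h, Pck1 is lowest at 48 and 96 h, Gys2 and Pygl are low at 24 and 48 h, and Gbe1 and Ugp2 are low at 48 h. Gbe1 is also low at P14.

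Among the 5 glycogen genes, 2, 4 and 1 stood more than 1.5-fold below the control at 24, 48 and 96 h, beside 18.8%, 21% and 8.04% of all genes with at least 5 CPM in either library. Gys2 and Pygl, which build and degrade the polymer, were low at 24 and 48 h, and Gys2 also at 96 h. Of the times after surgery, Gbe1 and Ugp2 were low at 48 h alone, and Ppp1r3c followed neither course.

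Gys2 was at 168 (162 to 176) CPM in the control. The 24 h library had 37.4 (34.7 to 40.2), the 48 h library 31.8 (29.4 to 34.3), the 96 h library 78.4 (73.7 to 83.2) and P14 129.9 (127 to 133). None of the 5 intervals overlapped. The level was 4.51-fold lower than the control at 24 h, 5.29-fold lower at 48 h and 2.15-fold lower at 96 h. The log2 ratios were −2.17 (95% interval −2.30 to −2.05), −2.40 (95% interval −2.53 to −2.28) and −1.10.

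Pygl was at 307 CPM at P14, 289 in the control, and 135, 121 and 239 at 24, 48 and 96 h. Its log2 ratio to the control was −1.10 (95% interval −1.17 to −1.03) at 24 h and −1.26 (95% interval −1.33 to −1.19) at 48 h, so that the phosphorylase and the synthase were low in the same 2 libraries. At 96 h it was −0.27, within 1.5-fold of the control.

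Gbe1, which adds the branches, was at 144 (137 to 150.3) CPM in the control and 146 (139.6 to 153) at 96 h, levels whose intervals overlapped. Their log2 ratio of 0.02 ranged from −0.50 to 0.31 over the alternatives. The 24 h library had 118, the 48 h library 69.0 (65.5 to 72.6) and P14 57.7 (55.9 to 59.6). The log2 ratio to the control was −1.06 (95% interval −1.16 to −0.96) at 48 h and −1.32 (95% interval −1.40 to −1.24) at P14, where Gbe1 was the 1 gene of the 9 more than 1.5-fold lower.

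Ugp2 was at 371 CPM in the control, 346 (336 to 356) at 96 h, 333 (325 to 341) at 24 h, 319 at P14 and 163 (158 to 169) at 48 h. The 24 h and 96 h intervals overlapped, and 48 h stood apart below the others, at −1.18 (95% interval −1.25 to −1.12) relative to the control. Its ratios in the other libraries were small, from −0.22 to −0.10. With a marker share of 5% the 96 h ratio was 0.23 and the P14 ratio 0.11, so the direction in these libraries is not settled.

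Ppp1r3c gave the fewest UMIs of the 9, 256 in the control, 571, 347 and 410 at 24, 48 and 96 h, and 858 at P14. Its levels were 19.2 (16.9 to 21.7), 29.3 (26.9 to 31.8), 16.7 (14.9 to 18.5), 30.5 (27.6 to 33.6) and 13.3 (12.4 to 14.2) CPM in the same order. The 24 h and 96 h intervals overlapped above the control, those of 48 h and the control overlapped, and P14 was lowest. The ratio to the control was 0.61 (95% interval 0.39 to 0.82) at 24 h and 0.67 (95% interval 0.44 to 0.90) at 96 h, and both stand close to the 1.5-fold line, which is 0.58 on this scale. With 10% to 20% mitochondrial UMIs they were 0.20 and 0.27.

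Counted over the genes, a member was called when its CPM differed at least 1.5-fold between 2 libraries. At 24 h, 2 of the 9 were called lower than the control (Gys2 and Pygl) and 1 higher (Ppp1r3c), against 18.8% and 20.1% of the 9028 genes tested, which had at least 5 CPM in either library. At 48 h, 5 were lower (Pck1, Gys2, Pygl, Gbe1 and Ugp2) and 1 higher (G6pc), against 21% lower and 18.5% higher of all genes. At 96 h, 3 were lower (Pck1, Pcx and Gys2) and 1 higher (Ppp1r3c), against 8.04% and 13.7%. The share called lower at 24 h was near that of all genes, while at 48 and 96 h more of the members than of all genes were lower. The members were chosen with earlier results of these data known, so this contrast is a description and not a test. With a marker share of 5%, 1 of the 9 was lower at 96 h. All 9 members passed the level filter in every comparison.

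The median log2 ratio of the members was −0.22, −0.85 and −0.10 at 24, 48 and 96 h, beside −0.00089, −0.08 and 0.04 for all genes tested. The 96 h median of the members turned to 0.08 with a marker share of 5% and to 0.003 with 10% to 50% mitochondrial UMIs. For the 4 gluconeogenic genes the medians were −0.15, −0.17 and −0.22, and for the 5 glycogen genes −0.28, −1.18 and −0.10. These comparisons share the control library, so a control level that was unusual would enter each of them.

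**Figure D2:**
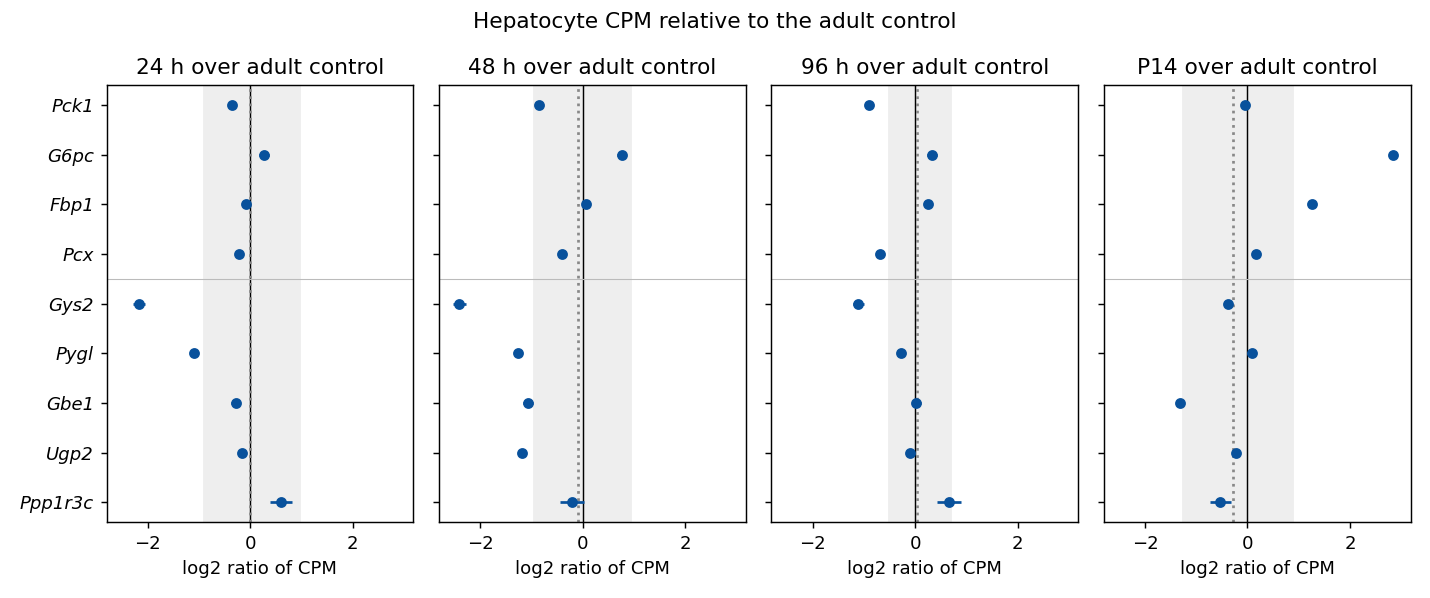
Log2 ratio of CPM to the adult control for each gene at 24, 48 and 96 h after surgery and at P14, with 95% counting intervals, most of them narrower than the point. The grey band spans the 10th to the 90th percentile of all genes tested and the dotted line is their median. Gys2 lies left of the band at 24, 48 and 96 h, and Pygl at 24 and 48 h. Gbe1 lies left of it at 48 h and P14, Ugp2 at 48 h, and Pck1 and Pcx at 96 h. At P14, G6pc lies far right of the band, and Fbp1 lies right of it too.

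Steps between the operated libraries do not use the control. From 24 to 48 h, 3 of the 9 were lower, Gbe1 at −0.78 (95% interval −0.88 to −0.68), Ugp2 at −1.03 (95% interval −1.09 to −0.97) and Ppp1r3c at −0.81 (95% interval −1.01 to −0.62), and 0 were higher, against 8.02% lower and 5.9% higher of all genes. Gys2 and Pygl hardly differed over this step, at −0.23 and −0.16. From 48 to 96 h, all 5 glycogen genes were higher and 0 of the 9 were lower, against 15.2% and 9.08% of all genes. Gys2 was 2.46-fold higher with a log2 ratio of 1.30 (95% interval 1.16 to 1.44). Gbe1 was 2.12-fold higher, Ugp2 2.12-fold, Pygl 1.98-fold and Ppp1r3c 1.83-fold. The gluconeogenic genes lay within 1.5-fold over the same step, Pck1 at −0.05, G6pc at −0.43, Fbp1 at 0.19 and Pcx at −0.28. In non-cycling hepatocytes, the Ppp1r3c ratio of 48 to 24 h was −0.32 and that of 96 to 48 h was −0.0071.

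At P14, 2 of the 9 genes were at least 1.5-fold higher than in the adult control (G6pc and Fbp1) and 1 lower (Gbe1), against 15.1% and 33% of all genes. The median of all genes stood at −0.28 here and moved to 0.04 when libraries were scaled by TMM factors, a shift of 0.32, so P14 ratios are also given relative to that median. On this footing G6pc was at 3.11, Fbp1 at 1.54, Pcx at 0.45, Pygl at 0.37, Pck1 at 0.24, Ugp2 at 0.06, Gys2 at −0.10, Ppp1r3c at −0.25 and Gbe1 at −1.04. Pck1 and Ugp2 were slightly below the control as plain ratios (−0.04 and −0.22) and slightly above it relative to the median, whereas G6pc and Fbp1 were higher and Gbe1 lower on both.

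Per cell, the genes were compared after each hepatocyte was thinned to 3500 non-mitochondrial UMIs, which every cell had, so none was left out. Pck1 was found in 99.7% (99.1 to 99.9) of control cells, 99.5% at 24 h, 98.3% (97.1 to 99.1) at 48 h, 94.7% (92.9 to 96.2) at 96 h and 99.8% at P14. Nearly every hepatocyte thus carried a Pck1 UMI until 96 h, when the share was lowest. The 10th and 90th percentiles were 4 and 16 UMIs in the control, 2 and 10 at 48 h, and 1 and 11 at 96 h.

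At 48 and 96 h the mean of Pck1 per cell was alike, 5.75 and 5.69 UMIs, but the spread was not. The Fano factor (variance over mean, 1 for counting noise alone) was 1.99 in the control, 2.24 at P14, 2.45 at 24 h, 1.68 at 48 h and 3.54 at 96 h. The coefficient of variation that exceeds counting noise was 0.317, 0.360, 0.427, 0.345 and 0.668 in the same order. By this measure the hepatocytes at 96 h differed most among themselves in Pck1.

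G6pc was in 83.2% (81.5 to 84.8) of P14 hepatocytes, 26.8% (24.0 to 29.8) of control cells, 32.6% at 24 h, 42.7% at 48 h and 34.5% at 96 h. Gys2 was in 46.7% of control cells and 37.6% at P14, but in 13.8%, 11.3% (9.05 to 13.8) and 23.7% at 24, 48 and 96 h. The shares of both genes differed in the direction of their CPM. At equal depth such a share follows largely from the mean, so it is not separate evidence on how many cells make the gene. Without thinning, 66.2% of control cells and 99.8% of P14 cells held a G6pc UMI.

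Fbp1 was in 90.1% to 98.4% of cells, Pcx in 44.4% to 65.3%, Pygl in 37.1% to 66.2%, Ugp2 in 44.1% to 73.5%, Gbe1 in 16.9% to 40.9% and Ppp1r3c in 4.56% to 9.91%. The Fano factors of Pcx, Gys2, Pygl, Gbe1, Ugp2 and Ppp1r3c lay between 0.929 and 1.15 in all libraries. A Fano factor comes near 1 at low means whatever the relative spread, and the coefficient of variation beyond counting noise of these genes ran from 0 to 1.18 (Ppp1r3c at 48 h), with 0.664 for Gys2 at 96 h and 0.542 for Gbe1 at 48 h. These values have no interval here, and at such means a spread like that of Pck1 can be neither shown nor dismissed. For G6pc the Fano factor was between 1.15 and 2.21, and for Fbp1 between 1.12 and 2.02.

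**Figure D3:**
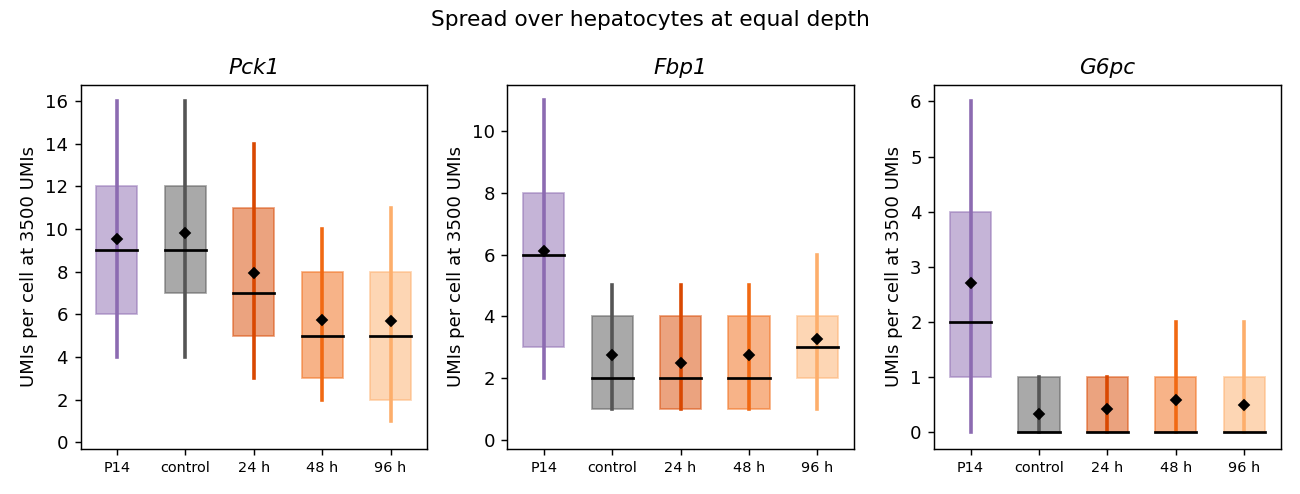
UMIs per hepatocyte of Pck1, Fbp1 and G6pc after thinning to 3500 non-mitochondrial UMIs per cell. Boxes span the quartiles, black lines are medians, diamonds are means and vertical lines run from the 10th to the 90th percentile. Pck1 at 96 h reaches from 1 to 11 UMIs around the same median as at 48 h, and G6pc has a median above 0 at P14 alone.

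Free RNA in the droplets gives UMIs also in cells that do not make a gene. Droplets without a cell held a mean of 1328.5 UMIs in the control and 290.0 to 794.8 in the other libraries, which could supply 7.10% to 15.8% of the UMIs of each member in control hepatocytes and at most 6.40% elsewhere. At 1000 UMIs per cell, Pck1 was found in 91.8% of hepatocytes and 57.5% of barcodes with lymphocyte markers in the control, and in 76.8% and 10.6% at 48 h. Those barcodes had median depths of 5836.5 and 6144 UMIs. For G6pc the hepatocyte share was 10.4% in the control and 48.2% at P14, beside 2.05% and 3.07% of the lymphocyte barcodes. Subtracting the free RNA left each of the counts of members past 1.5-fold between libraries as given.

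Pygl was the exception among the 9, since at 24 h its share was 12.7% in hepatocytes and 14.4% in lymphocyte barcodes. Several markers of that class, such as Ptprc and Coro1a, are also made by other blood cells. Among barcodes with lineage markers of T or B cells and at most 1 UMI of myeloid genes, the Pygl share was 2.21% at 24 h, 2.11% at 48 h and 12.8% in the control. There Pygl had 10.9% as many UMIs as Pck1 at 24 h, against 8.69% in free RNA and 72.2% in all lymphocyte barcodes.

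Position along the liver lobule was approximated within each library by ranking cells on pericentral against periportal genes (among them Cyp2e1 and Glul against Cyp2f2 and Hal), none of them a member, and cutting the ranking into 3 equal parts. Such parts are ranges of a score, and 13.0% to 19.2% of the cells lay within 0.25 log2 units of a cut. A part need not mean the same place in every library, since levels of the ranking genes differed too. For Cyp2e1, the control had 4949 in its pericentral and 320 in its periportal part. The 96 h library had 2896 and 41.0, and P14 had 4236 and 792. For Cyp2f2, the periportal and pericentral parts had 2812 and 420 in the control, 1649 and 84.1 at 96 h, and 67.8 and 4.07 at P14. The periportal part at P14 thus held less Cyp2f2 than the pericentral part of the control. How much this sharper or weaker split adds to differences in ratio between libraries was not tested. Pck1, G6pc and Fbp1 were each more than 1.5-fold higher in the periportal part in 4 of the 5 libraries, all but 48 h for Pck1, 96 h for G6pc and 24 h for Fbp1. Pcx, Gys2, Pygl and Ugp2 lay within 1.5-fold in each library, with ratios mostly above 0. In non-cycling hepatocytes alone, G6pc at 96 h was past 1.5-fold too, at 0.80 (0.59 to 1.03). Gys2 at P14 was just past 1.5-fold in these cells, at 0.60 (0.51 to 0.69). Gbe1 was more than 1.5-fold higher in the periportal part at P14 alone, and Ppp1r3c was more than 1.5-fold higher in the pericentral part in 3 libraries.

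Pck1 was at 3273 CPM in the periportal, 2787 in the middle and 2170.3 in the pericentral part of the control, a 1.51-fold difference. At 96 h the 3 values were 2271, 1592 and 732. The pericentral part was lower by far than that of the control, and the periportal part was nearer to its counterpart. These parts may not be matching positions in the 2 libraries. The log2 ratio of periportal to pericentral was 0.59 (0.56 to 0.63) in the control, 0.76 (0.75 to 0.78) at P14, 0.66 (0.62 to 0.70) by 24 h, 0.54 (0.50 to 0.58) by 48 h and 1.63 (1.58 to 1.69) by 96 h. In non-cycling hepatocytes alone the 96 h levels were 2371 CPM periportal and 837 pericentral.

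G6pc showed its widest difference at P14, with 1189 CPM periportal and 388 pericentral. The log2 ratio was 1.62 (1.58 to 1.65) there, 0.99 (0.80 to 1.19) in the control, 1.04 at 24 h, 0.75 at 48 h and 0.49 (0.32 to 0.65) at 96 h. The order for G6pc was thus unlike that for Pck1, with 96 h lowest. In non-cycling cells alone 96 h was also lowest, at 0.80 (0.59 to 1.03), close to 48 h at 0.87 (0.63 to 1.11). Fbp1 was at 0.70 in the control, 0.26 (0.19 to 0.32) at 24 h, 0.85 at 48 h, 1.10 (1.03 to 1.17) at 96 h and 0.98 at P14, so 24 h was the library with the flattest profile.

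Pcx lay between 0.03 and 0.27 and Pygl between 0.08 and 0.39. Ugp2 was at −0.04 in the control and from 0.30 to 0.39 after surgery, and Gys2 was between −0.04 and 0.52. Gbe1 was at 0.69 (0.58 to 0.81) at P14 and between −0.16 and −0.05 in the 4 adult libraries. For Ppp1r3c the ratio was −0.69 (−1.16 to −0.23) in the control, −0.95 (−1.35 to −0.56) by 48 h and −0.77 (−1.14 to −0.40) by 96 h, with higher levels on the pericentral side. It was smaller at P14, −0.25, and at 24 h, −0.23 (−0.53 to 0.06), where the interval includes 0. In non-cycling hepatocytes the 24 h ratio was −0.58 (−1.04 to −0.11), and the control ratio −0.71.

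Counted at 1.5-fold, 4 members were higher in the periportal part at P14 (Pck1, G6pc, Fbp1 and Gbe1) and 0 lower, against 4.56% and 2.73% of all genes. In the control 3 were higher and 1 lower (4.16% and 7.21% of all genes), and at 24 h 2 were higher and 0 lower (4.1% and 6.9%). At 48 h 2 were higher and 1 lower (7.03% and 3.79%), as at 96 h (4.9% and 12.1%). The gene counted lower was Ppp1r3c each time.

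**Figure D4:**
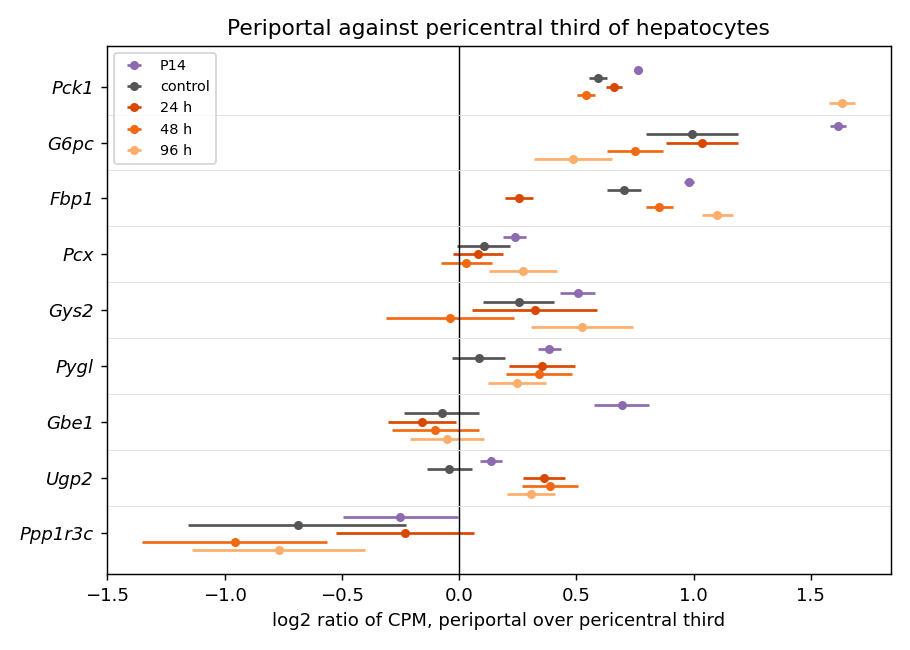
Log2 ratio of CPM between the periportal and the pericentral part of the hepatocytes of each library, with 95% counting intervals. Values right of 0 are higher on the periportal side. Pck1 at 96 h, at 1.63, stands right of the other 4 libraries, G6pc does so at P14, and Ppp1r3c lies left of 0.

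Hepatocytes in division were compared with those outside it in the same library. Cycling cells had UMIs of at least 3 mitosis genes at 3500 UMIs and non-cycling cells had none and at most 1 replication gene, which gave 148 and 401 cells at 24 h, 292 and 198 at 48 h, 70 and 527 at 96 h, and 245 and 1362 at P14. Hepatocytes in neither class were left out, which at 24 h meant most of the 1170. The control had 3 cycling cells and gives no value. Pck1 was lower in cycling cells at 24 and 96 h and almost level at 48 h and P14, and Ppp1r3c was lower in them at 24 and 48 h.

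At 96 h, Pck1 was at 629.6 CPM in cycling and 1703 in non-cycling hepatocytes, a log2 ratio of −1.44 (−1.53 to −1.34). At 24 h its levels were 1380.2 and 2465 with a ratio of −0.84 (−0.89 to −0.79), at 48 h 1464 and 1577 with −0.11 (−0.15 to −0.07), and at P14 2569 and 2639 with −0.04 (−0.06 to −0.02). The library with the most cycling cells, 48 h, was thus among those with the smallest difference. Cycling cells at 96 h also had a more pericentral lobule score than the others, with medians of 0.20 and −3.27, as did those at 24 h, with 1.07 and −0.47. They were less pericentral than the others at 48 h, with 0.89 and 1.52, and at P14, with 1.00 and 1.65. Within the pericentral part alone, the Pck1 ratio was −0.84 at 96 h (45 cycling and 142 non-cycling cells) and −0.73 at 24 h, and within the middle part it was −0.99 and −0.59. At 48 h the ratio was between −0.16 and −0.14 in the 3 parts, and at P14 between −0.19 and 0.02.

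Ppp1r3c was at 12.4 CPM in cycling and 35.1 in non-cycling cells at 24 h, and at 9.19 and 28.2 at 48 h. The log2 ratios were −1.51 and −1.62 (−2.01 to −1.23). At 96 h the ratio was 0.17 (−0.31 to 0.61) and at P14 0.03 (−0.30 to 0.34), intervals that include 0. Within the 3 parts of the lobule the ratio lay between −2.28 and −1.23 at 24 h and between −1.85 and −1.36 at 48 h. Cycling cells at 24 h held only 37 Ppp1r3c UMIs in all. The 24 h intervals were −3.60 to −0.95 in the periportal, −3.78 to −1.08 in the middle and −1.96 to −0.55 in the pericentral part. Non-cycling cells at 48 h stood at 28.2 CPM, above the control level of 19.2, although the 48 h library as a whole was at 16.7.

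Gys2 was at −0.65 (−1.03 to −0.28) in cycling relative to non-cycling cells at 24 h, −0.26 at 48 h, −0.70 (−1.05 to −0.38) at 96 h and −0.09 at P14. Fbp1 was at −0.79 (−0.90 to −0.69) at 96 h and between −0.27 and −0.06 elsewhere, and Pcx was between −0.46 and −0.18 in all 4 libraries. G6pc was at 0.39 (0.27 to 0.51) at 48 h and −0.24 at 24 h. The 24 h ratio of G6pc differed in direction between parts of the lobule. It was −0.46 (−0.77 to −0.17) in the periportal, 0.26 (−0.09 to 0.60) in the middle and 0.45 (0.05 to 0.84) in the pericentral part. Gbe1 lay between 0.09 and 0.20, Pygl between −0.27 and 0.08, and Ugp2 between −0.33 and 0.19. In non-cycling cells Gys2 was at 40.8 CPM at 24 h and 34.8 at 48 h, beside 168 in all hepatocytes of the control.

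At 1.5-fold, 3 members were lower in cycling cells at 24 h (Pck1, Gys2 and Ppp1r3c), 1 at 48 h (Ppp1r3c), 3 at 96 h (Pck1, Fbp1 and Gys2) and 0 at P14. Of all genes, 3.63%, 3.07%, 7.1% and 1.44% were lower in the same order. Within parts of the lobule, Fbp1 at 96 h was at −0.31 in the middle and −0.46 in the pericentral part, within 1.5-fold. Gys2 at 24 h was at −0.68 (−1.39 to −0.04) in the periportal, −0.50 (−1.20 to 0.16) in the middle and −0.55 (−1.26 to 0.14) in the pericentral part. These intervals overlapped. Gys2 at 96 h was at −1.09 (−1.92 to −0.36) in the middle part, with 20 cycling cells. It was at −0.43 (−0.88 to −0.0056) in the pericentral part. No member was 1.5-fold higher in cycling cells in any of the 4 libraries, against 21.5%, 22.6%, 23.9% and 22.4% of all genes. The median of all genes lay between 0.16 and 0.26, and cycling cells were deeper after surgery (24830.5 against 19860 UMIs at 24 h), a difference whose part in the ratios was not tested.

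**Figure D5:**
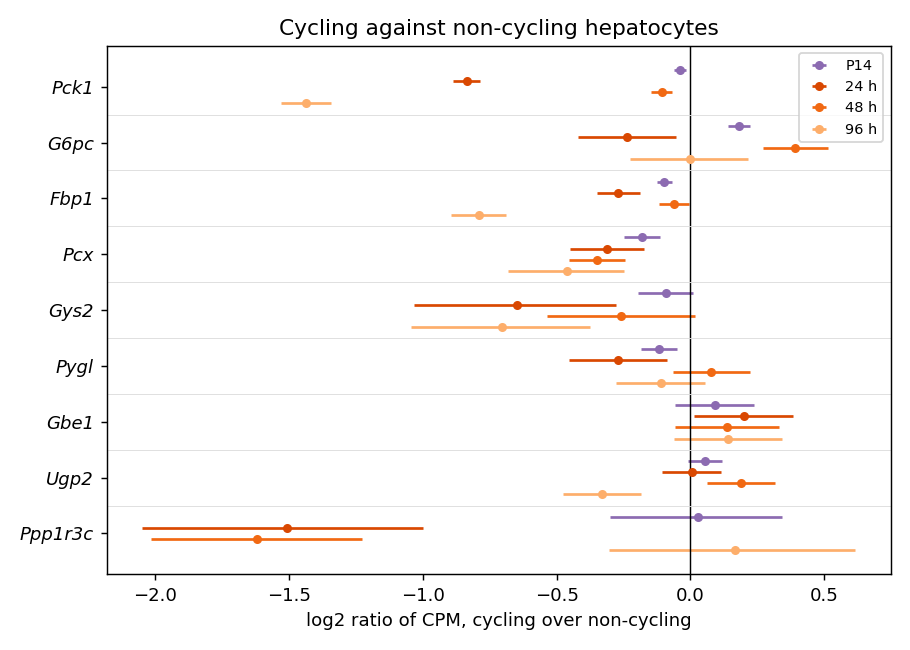
Log2 ratio of CPM between cycling and non-cycling hepatocytes of the same library, with 95% counting intervals, for P14 and for 24, 48 and 96 h after surgery. Values left of 0 are lower in cycling cells. Pck1 and Gys2 at 24 and 96 h, Fbp1 at 96 h, and Ppp1r3c at 24 and 48 h lie below −0.58. G6pc, Gbe1 and Ugp2 lie between −0.33 and 0.39.

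Other genes of glucose metabolism were grouped in 4 lists, and their values after surgery are in the order of 24, 48 and 96 h. Their counts at 1.5-fold stand beside 18.8%, 21% and 8.04% of all genes lower and 20.1%, 18.5% and 13.7% higher than the control, and at P14 beside 33% lower and 15.1% higher. In the list of 15 reversible and further gluconeogenic steps, 13 were tested at 24 and 48 h and 14 at 96 h, of which 1, 5 and 1 were lower than the control and 1, 0 and 2 higher. Slc37a4, the transporter that carries glucose-6-phosphate to the site of G6pc, was at 134 CPM in the control, 72.6, 35.9 and 87.5 after surgery, and 109 at P14. It was thus lowest at 48 h, the adult library in which G6pc was highest. The glycolytic enzyme Eno1 was at 66.6 CPM in the control, 115 at 96 h and 229 at P14.

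Of 13 genes of glycolysis and glucose entry, 8 were tested after surgery, of which 3, 5 and 1 were lower and 3, 1 and 0 higher at 24, 48 and 96 h. Slc2a2, the hepatic glucose transporter GLUT2, was at 317 CPM in the control, and 117, 54.0 and 330.1 at 24, 48 and 96 h. Liver pyruvate kinase (Pklr) was at 60.8, 19.7, 13.6 and 50.6 CPM in the control and at these times. Both were low at 24 and 48 h, as Gys2 and Pygl were, and nearer to the control at 96 h. Pfkfb3, which makes the activator of phosphofructokinase, had log2 ratios of 1.32, 0.37 and −0.97. At P14, 10 of the list were tested, with 3 lower and 5 higher (among them Pfkl, the liver phosphofructokinase, at 1.52).

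Of 15 further glycogen genes, 12 were tested after surgery, of which 4, 2 and 1 were lower and 2, 1 and 2 higher. At P14, 4 of 13 were lower and 3 higher, with Stbd1, a glycogen-binding protein, at −1.48, the phosphorylase kinase subunit Phkb at −1.18 and the kinase Gsk3b at −1.10. The 3 higher genes, Pygb at 3.53, Ppp1r3g at 1.90 and Pgm1 at 1.28, were below 20 CPM in both libraries and were named after their values were seen. At P14 the share of the list that was lower was close to that of all genes.

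Of 15 hormone and regulator genes, all tested, 6, 8 and 3 were lower and 3, 2 and 1 higher after surgery. Igfbp1, an insulin-repressed gene of the liver, was at 23.6 CPM in the control, 468, 235 and 42.9 after surgery, and 2075 at P14. Cebpa, a transcription factor known to activate Pck1 and Gys2, was at 352, 72.5, 81.2, 263 and 165 CPM. The glucagon receptor Gcgr was lower at all 3 times, at −1.02, −0.95 and −0.84. The insulin receptor substrates had log2 ratios of −0.90, −1.26 and −0.67 for Irs1 and −0.82, −0.53 and −1.10 for Irs2, and Tat, a glucocorticoid-induced aminotransferase, was at 1.23, 0.35 and −0.16. At P14, 7 of the list were lower and 3 higher, with Irs1 at −1.55, Gcgr at −1.37, Tat at −1.33 and Irs2 at 1.26.

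For each member the 3 genes with the nearest profile over the 5 libraries were found among 3379 genes of at least 50 CPM in a library, by Euclidean distance of centred log2(CPM + 1). Over 5 points such likeness is a description. Pck1 lay nearest to Angptl4 (0.209), Slco1b2 and Cpq, and Pcx to Cdip1 (0.249), Rhobtb1 and Pck1 (0.325). G6pc lay nearest to Ahsg (0.381), Itih2 and Rdh5, and Fbp1 to Nr0b2 (0.119), Apof and Bsg. Gys2 lay nearest to Acsl1 (0.424), Hsd11b1 and Dio1, whose own levels were 249 CPM in the control, and 38.1, 32.1 and 124 after surgery. Pygl lay nearest to Vwa8 (0.152), Dgat2 and Narf, Gbe1 to Mtss1 (0.306) and B2m, Ugp2 to Apoa5 (0.205), Vegfa and Etfrf1, and Ppp1r3c to Atl3 (0.273), Pdcd10 and Ndfip2. Among the 9, Pck1 was the 1 member that appeared among the nearest genes of another. Ppp1r3c was below 50 CPM in every library, so it was not among the genes searched and could not appear.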

How the data were processed

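For each library the authors deposited a matrix of whole-number UMI counts per gene and barcode, empty droplets included. Per the file headers it was written by Cell Ranger software version 3.0.2, and per the submitters' processing notes bcl2fastq 2.17.1.14, Seurat 3.1 and genome build mm10 were used. The annotation is not given in the sources used here. Libraries held 80927744 to 136110607 UMIs, and hepatocytes 13316829 to 64576753 non-mitochondrial UMIs per library.

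Counts were summed over the hepatocytes of each library, divided by non-mitochondrial UMIs and compared as ratios. With 1 library per group there is no test and no p. Intervals are at 95% and cover counting error only. A gene was tested at 5 CPM or more in either library and called at 1.5-fold. No doublet caller was run, and cells with at least 3 markers of another class were left out as an alternative. Free RNA was taken from barcode ranks 20001 to 60000. TMM factors came from edgeR 4.0.16 (R 4.3.3), without its tests. Other work used Python 3.11.15, numpy 2.4.6, scipy 1.17.1 and pandas 2.3.3, and the calculations were tested on simulated data.

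The text names all 9 members and, of each pathway list, up to 6 genes at least 2-fold from the control in a comparison with at least 20 CPM in 1 of the libraries, by size of ratio. It also names the 3 nearest profiles of each member. A few genes that these rules would name are not reported here. Members and lists were chosen with earlier results of these data known. Promoter windows are from RefSeq (GRCm38.p6).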

Additional observations from a re-analysis of the deposited data

How the results depend on the processing

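No paired analysis was possible because there was 1 library per group, and none could be left out. With 10% to 20% mitochondrial UMIs only 87 control and 53 cells at 96 h remained, and a marker share of 5% left 6 cells at 24 h and 2 at 48 h, so it gave no value there. Across the 13 alternatives (14 for 96 h and P14 against the control), Gys2 and Pygl at 24 h, Pck1, Gys2, Pygl, Gbe1 and Ugp2 at 48 h, Gys2 at 96 h, and G6pc, Fbp1 and Gbe1 at P14 kept their direction and stayed past 1.5-fold. The range for Gys2 after surgery was −2.31 to −2.04 in the first comparison, −2.50 to −2.27 in the second and −1.32 to −0.78 in the third. The range for Pck1 at 96 h was −1.09 to −0.28, the upper end with a marker share of 5%, and for G6pc at P14 it was 2.57 to 3.15.

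The counts of members that moved by more than 1.5 times were small ones. The 1 gene higher at 24 h (Ppp1r3c) became 0 with 10% to 20% mitochondrial UMIs, with 10% to 50%, without the lower limit, with 10000 UMIs, with a pseudocount of 1 CPM and at 2-fold. The 1 gene higher at 48 h (G6pc) became 0 with 10% to 20% and at 2-fold, and in non-cycling cells it was another gene, with Ppp1r3c at 0.59 and G6pc at 0.56. At 96 h, the 1 higher became 0 with 10% to 20%, without the lower limit, with a marker share of 5% and at 2-fold, and the 3 lower became 1 with the marker share of 5% and at 2-fold. At P14, the 1 lower became 2 with 10% to 20%. From 24 to 48 h, the 0 higher became 1 with 10% to 20% and without the lower limit, and the 3 lower became 1 at 2-fold. From 48 to 96 h, the 0 lower became 1 with 10% to 20% and without the lower limit, and the 5 higher became 3 at 2-fold. Ppp1r3c from 48 to 96 h reversed to −0.0071 in non-cycling cells. The cause was not tested, apart from the stricter fold, which calls fewer genes by its construction. TMM and median-of-ratios scaling changed no count but moved the median of all genes at P14 by 0.32 and 0.26. The limits of 10% to 50%, the non-cycling and within-lobule comparisons of the parts and the T or B cell barcodes were chosen after seeing the data. Depth limits Ppp1r3c most, with 256 UMIs in the control.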
